A study of Homo sapiens with 8 samples.

Results

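The genes described here encode the class II and class IV histone deacetylases (HDACs). The class IIa genes are HDAC4, HDAC5, HDAC7 and HDAC9, the class IIb genes are HDAC6 and HDAC10, and HDAC11 alone forms class IV. They were selected by symbol with earlier results of these data known, by a rule that uses no measured value, and make up 7 of the 25369 named genes in the table of read counts. All 7 passed the filter on low counts, which kept 17714 genes for testing.

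Poly(A) RNA was sequenced from 8 libraries in 4 groups of 2, from UWB1.289, a cell line of human ovarian cancer, and a derivative. UWB1.289 carries a BRCA1 mutation that gives a truncated protein and is termed BRCA1-null, and its derivative transduced with the BRCA1 gene is termed BRCA1+. BRCA1+ control and BRCA1-null control cells received DMSO, the vehicle, and BRCA1+ entinostat and BRCA1-null entinostat cells received 0.5 uM entinostat, each for 24 h. Entinostat is a benzamide inhibitor of class I HDACs, chiefly HDAC1 and HDAC3, so the genes described here encode deacetylases outside its main targets. Each genotype is a single cell line, so restored BRCA1 and any other difference between the lines cannot be told apart. The labels do not say that the 2 libraries of a group came from separate cultures, and p-values therefore measure only the spread between these libraries, which may be technical.

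Class IIa HDACs have little deacetylase activity of their own on acetyl-lysine. They bind MEF2 transcription factors and recruit corepressors that contain HDAC3, and phosphorylation by CaM kinases, protein kinase D and salt-inducible kinases creates binding sites for 14-3-3 proteins, which hold them in the cytoplasm. Of the class IIb enzymes, HDAC6 is a cytoplasmic deacetylase of alpha-tubulin and HSP90 with a ubiquitin-binding domain, and HDAC10 deacetylates polyamines. HDAC11 removes long-chain fatty acyl groups from lysine.

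Total counts were 31900158 to 53549893 per library, which puts the floor of detection (3 counts, as 0 observed counts allow) at 0.0552 to 0.0946 CPM (counts scaled by edgeR's effective library size). Each of the 7 genes lay far above this floor, which covers counting error only, with 227 counts (HDAC4) as the smallest value in any library. BRCA1 itself, the check of the labels, stood at 95.6 ± 4.63 CPM with DMSO and 126 ± 11.0 with entinostat in BRCA1+ cells, against 21.7 ± 1.02 and 18.4 ± 1.12 in BRCA1-null cells (SD, n = 2), in the direction of the labels. The epithelial markers KRT7, KRT8, KRT18, KRT19, EPCAM and CDH1 and the Mullerian lineage marker PAX8 were expressed in all libraries. Of the other markers of epithelial and serous ovarian carcinoma, MUC16 had 2822 to 9249 counts and MUC1 413 to 4193, whereas WT1 had only 1 to 20. Markers of other cell types were mixed. Of the fibroblast markers DCN and LUM had 0 counts in every library and PDGFRB 0 to 4, but COL1A1 had 178 to 1043 and COL1A2 407 to 1736. Of the leukocyte markers given here CD3E had 0 to 4, ITGAM 0 to 67, PTPRC 93 to 214 and CD68 377 to 1451. The endothelial markers ranged from 29 counts (lowest library, KDR) to 3513 (highest, CDH5), and the part of any such cells in the results was not tested.

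The RefSeq windows around the start sites are shown for 4 of the genes. HDAC5 had no window in the source used here, and the windows of HDAC6 and HDAC11 are not shown. HDAC9 differed most between the lines, HDAC4 and HDAC10 were lower with entinostat over both lines, and HDAC7 was the most abundant. Each window runs from 250 bases before the start site to 30 bases from it onwards, 5′ to 3′ on the strand of the gene, in build GRCh38.p14. The windows are chr7:18086575-18086854 (plus strand) for HDAC9, chr2:239401620-239401899 (minus) for HDAC4, chr22:50251236-50251515 (minus) for HDAC10 and chr12:47819874-47820153 (minus) for HDAC7. For HDAC9 and HDAC4, which have 5 annotated windows each, the outermost is given. Capitals mark the match to the MEF2 motif in HDAC9, the E-box CACGTG in HDAC4 and the GC boxes (GGGCGG on either strand) in HDAC10, and the window of HDAC7 held none of the motifs searched. Left unmarked are 3 GC boxes in the HDAC9 window, 1 in that of HDAC4 and 1 CCAAT box in that of HDAC10.
HDAC9: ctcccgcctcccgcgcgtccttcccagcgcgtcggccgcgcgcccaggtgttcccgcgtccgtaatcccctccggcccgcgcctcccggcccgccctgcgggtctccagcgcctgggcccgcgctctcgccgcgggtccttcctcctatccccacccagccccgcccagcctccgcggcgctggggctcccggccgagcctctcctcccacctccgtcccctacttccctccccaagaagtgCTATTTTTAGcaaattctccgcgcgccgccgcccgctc
HDAC4: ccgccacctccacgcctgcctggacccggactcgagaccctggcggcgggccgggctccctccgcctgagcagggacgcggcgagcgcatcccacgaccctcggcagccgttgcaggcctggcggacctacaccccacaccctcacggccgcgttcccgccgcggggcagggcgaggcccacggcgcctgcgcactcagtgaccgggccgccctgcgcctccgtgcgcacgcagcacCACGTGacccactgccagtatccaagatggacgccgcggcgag
HDAC10: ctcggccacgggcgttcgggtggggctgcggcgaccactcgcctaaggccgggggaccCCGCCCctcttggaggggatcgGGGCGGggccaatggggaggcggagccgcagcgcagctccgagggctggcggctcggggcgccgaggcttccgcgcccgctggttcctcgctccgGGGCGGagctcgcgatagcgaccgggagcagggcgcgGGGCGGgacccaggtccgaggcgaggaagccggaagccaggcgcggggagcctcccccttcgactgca
HDAC7: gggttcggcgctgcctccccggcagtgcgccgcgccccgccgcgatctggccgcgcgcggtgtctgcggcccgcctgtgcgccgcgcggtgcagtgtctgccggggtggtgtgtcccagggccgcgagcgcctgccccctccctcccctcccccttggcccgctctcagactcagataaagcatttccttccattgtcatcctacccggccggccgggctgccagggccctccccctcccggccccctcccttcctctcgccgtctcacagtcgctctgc
These 4 windows were rich in G and C, at 75% for HDAC9, 75.7% for HDAC4, 77.5% for HDAC10 and 74.3% for HDAC7, against a median of 58.2% over all 35114 windows. The other windows of HDAC9 lay at 38.9% to 49.6% and those of HDAC4 at 48.9% to 58.2%. The windows of HDAC6 lay at 53.2% to 67.9%, and that of HDAC11 at 73.6%. The MEF2 match of HDAC9 began 8 bases before its start site, and the E-box of HDAC4 began 13 bases before its own. RefSeq gave 16 windows for 6 of the 7 genes. Of the 16, 1 held a MEF2 match (2.92% of all windows) and 1 an E-box (6.94%). A GC box lay in 7 of the 16 (44.1% of all windows), a CCAAT box (CCAAT) in 6 (33.7%), and none held a TATA box (TATAAA, 11.2%) or a cyclic AMP response element (CRE, TGACGTCA, 1.85%). Both strands were searched, and a match describes letters only.

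The levels of the 7 genes were compared with each other per kilobase of the gene model given in the count table (CPM per kb). HDAC7 was far above the others, with a median of 96.6 CPM per kb over the 8 libraries, and contributed 74.0% to 80.1% of their summed level in each library. HDAC10 followed with a median level of 8.56 CPM per kb, then HDAC5 with 6.39, HDAC6 with 5.84, HDAC9 with 3.98, HDAC11 with 2.81 and HDAC4 with 0.907. The order below HDAC7 depended on the group. In BRCA1+ control cells HDAC9 (2.27 ± 0.0354 CPM per kb, SD, n = 2) stood second to last, and its libraries lay within the range of HDAC11 (2.32 ± 0.182). In BRCA1-null control cells HDAC9 reached 6.51 ± 1.19 CPM per kb, below HDAC7 and HDAC10 alone on average, with libraries on both sides of those of HDAC5 (6.39 ± 0.0912). In BRCA1+ entinostat cells HDAC6 (6.57 ± 0.435) and HDAC5 (6.46 ± 0.429) could not be ordered beyond their spread, and in BRCA1-null entinostat cells the same held for HDAC10 (8.12 ± 0.793) and HDAC5 (7.74 ± 0.425). HDAC4 was the lowest of the 7 in every library.

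**Figure D1:**
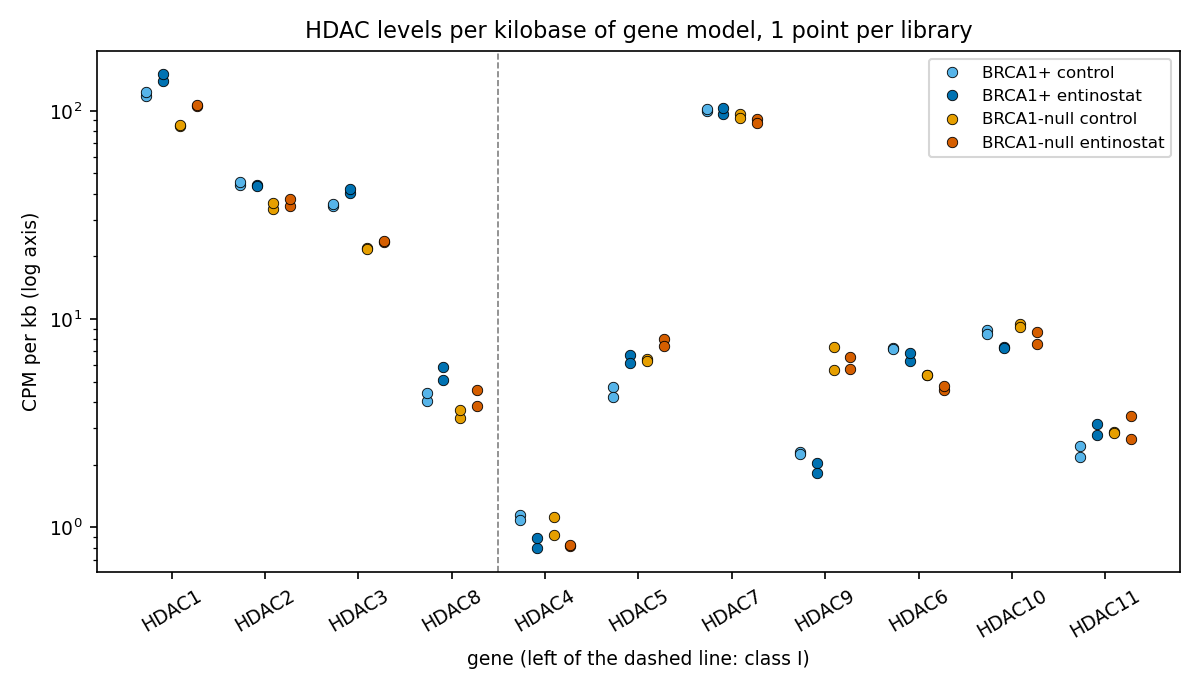
Level of each class I, II and IV HDAC gene in CPM per kb of gene model on a log axis, 1 point per library, coloured by group, with class I to the left of the dashed line. HDAC7 lies at 87.6 to 104 CPM per kb, near HDAC1, and the other class II and IV genes lie below 10 CPM per kb.

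Summed over the 7 genes, BRCA1+ cells had 127 ± 0.563 CPM per kb with DMSO and 126 ± 5.14 with entinostat, and BRCA1-null cells had 126 ± 4.37 with DMSO and 120.2 ± 5.10 with entinostat (SD, n = 2). These groups overlapped, apart from BRCA1-null entinostat cells, whose 2 libraries (117 and 124 CPM per kb) lay below both BRCA1+ control libraries. The sum of the class I genes HDAC1, HDAC2, HDAC3 and HDAC8 was 205 ± 5.75, 235 ± 8.73, 145 ± 2.33 and 170.2 ± 4.03 CPM per kb in the same order, with no overlap between groups.

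**Figure D2:**
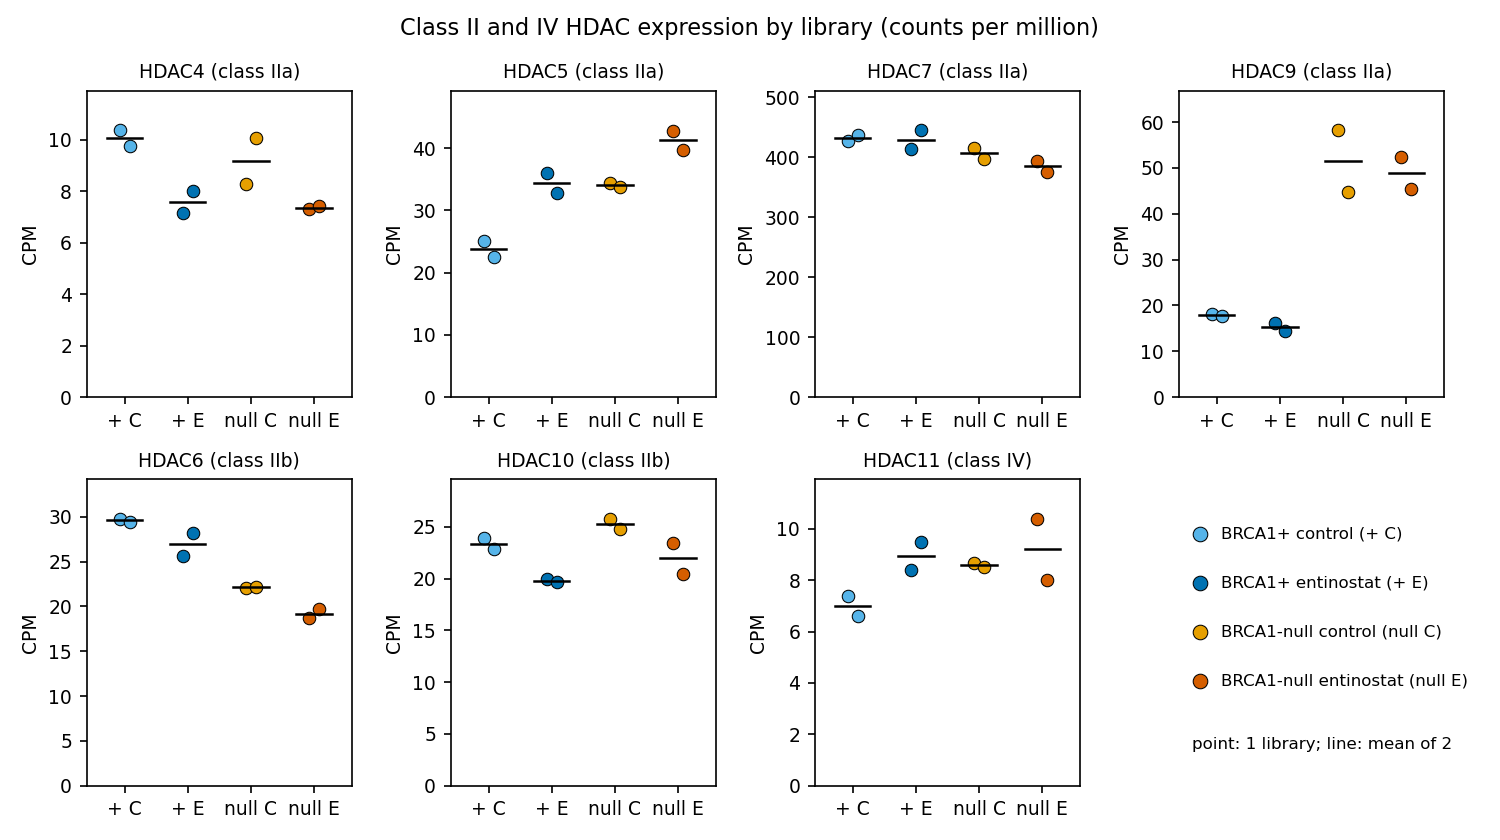
Expression in CPM (linear axis from 0) of the 7 genes, 1 panel each, with 1 point per library and a line at the mean of each group of 2; + stands for BRCA1+, null for BRCA1-null, C for control and E for entinostat. HDAC9 separates the lines (14.4 to 18.1 CPM against 44.8 to 58.2), HDAC5 is lowest in BRCA1+ control cells, and HDAC7 spans 376 to 444 CPM.

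The first comparison asked how entinostat altered these genes in each line. In BRCA1+ cells HDAC5 rose and was the only one of the 7 genes called, that is, with an adjusted p under 0.05 by edgeR's quasi-likelihood test, adjusted by Benjamini-Hochberg over all 17714 genes. This was 1 of 7, where 14.1% of all tested genes were called, 8.13% of all being higher. In BRCA1-null cells 0 of 7 were called (background 10.8%, with 7.57% higher and 3.19% lower). Of the 7, 4 had an unadjusted p under 0.05 with edgeR, against 4856 of all 17714 genes. The DESeq2 Wald test also called 0 of the 7, against 1669 of all. With the replicate numbers of the titles as a block, edgeR called HDAC5 in these cells (adjusted p = 0.0126) and 3640 of all genes. Taken as the average of both lines, HDAC5 rose and HDAC4 and HDAC10 fell, 3 of 7 where the background was 26.1% (15.2% higher, 10.9% lower). As the RNA is from bulk cultures, fewer cells of a type and less RNA per cell cannot be told apart.

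HDAC5, a class IIa repressor that shuttles between nucleus and cytoplasm, measured 25.1 and 22.5 CPM in BRCA1+ control and 36 and 32.8 CPM in BRCA1+ entinostat cells. It measured 34.4 and 33.7 CPM in BRCA1-null control and 42.8 and 39.6 CPM in BRCA1-null entinostat cells. In both lines the entinostat libraries lay above the control libraries without overlap, and the BRCA1-null control libraries lay at the level that BRCA1+ cells reached with entinostat. The log2 fold change was 0.53 ± 0.0880 (SE) in BRCA1+ cells, a 1.44-fold increase with a 95% interval of 1.26 to 1.66 (edgeR adjusted p = 0.00624, n = 2 per group). In BRCA1-null cells it was 0.28 ± 0.0827, or 1.21-fold (1.07 to 1.38), and missed the threshold (edgeR adjusted p = 0.0637). The average of both lines was 0.40 ± 0.0604 (edgeR adjusted p = 0.00173). The difference between the lines in this response, -0.25 ± 0.121 (BRCA1-null minus BRCA1+, 95% interval -0.52 to 0.02), was not called (edgeR adjusted p = 0.967). The call in BRCA1+ cells held in all 14 alternative fits, in which the log2 fold change was 0.45 to 0.61.

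HDAC4, the MEF2-binding repressor best known from bone and muscle, was the least abundant of the 7 per kilobase. In BRCA1+ cells it measured 10.4 and 9.74 CPM with DMSO against 7.16 and 8.0 CPM with entinostat, and in BRCA1-null cells 8.29 and 10.1 CPM with DMSO against 7.29 and 7.42 CPM with entinostat. Entinostat libraries were below control libraries in both lines without overlap. The log2 fold change was -0.40 ± 0.132 in the BRCA1+ line (edgeR adjusted p = 0.0798), and that in the BRCA1-null line was -0.33 ± 0.129 (adjusted p = 0.139), neither called. With the replicate numbers as a block the change in the BRCA1+ line was called (edgeR adjusted p = 0.0359). Over both lines HDAC4 fell by 0.36 on the log2 scale (SE 0.0923, edgeR adjusted p = 0.0196), a 1.28-fold decrease. This call was lost without BRCA1+ control replicate 1 (adjusted p = 0.0564), BRCA1+ entinostat replicate 1 (0.0701), BRCA1-null entinostat replicate 1 (0.0567) or BRCA1-null control replicate 2 (0.0638, edgeR).

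HDAC10, the polyamine deacetylase, measured 23.9 and 22.9 CPM in BRCA1+ control and 20.0 and 19.6 CPM in BRCA1+ entinostat cells. In BRCA1-null cells it measured 25.8 and 24.8 CPM in control and 23.5 and 20.4 CPM in entinostat. The groups again did not overlap within a line. The log2 fold changes of -0.24 ± 0.0907 in BRCA1+ (edgeR adjusted p = 0.116) and -0.20 ± 0.0867 in BRCA1-null cells (0.176) were not called. With the replicate numbers as a block the change in BRCA1+ cells was called (edgeR adjusted p = 0.0442). Over both lines, in the reported fit, HDAC10 fell by 0.22 (SE 0.0627, edgeR adjusted p = 0.0315), a 1.16-fold decrease. That call was lost with upper-quartile scaling (adjusted p = 0.0596) and in 7 of the 8 fits that omitted 1 library, all but the one without BRCA1-null entinostat replicate 1, with adjusted p = 0.0565 to 0.0944 (edgeR). TUBGCP6, which lies 212 bases from HDAC10 on the same strand, was also lower over both lines, at -0.17 ± 0.0527 (edgeR adjusted p = 0.0429), and its part in the HDAC10 value was not tested.

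HDAC6, the tubulin deacetylase, measured 29.8 and 29.4 CPM in BRCA1+ control against 25.7 and 28.2 CPM in BRCA1+ entinostat cells. It measured 22.1 and 22.2 CPM in BRCA1-null control against 18.7 and 19.7 CPM in BRCA1-null entinostat cells. Every entinostat library was thus below the controls of its line, but the average log2 fold change of -0.17 ± 0.0562 was just outside the threshold (edgeR adjusted p = 0.0517). With the replicate numbers as a block it was called (edgeR adjusted p = 0.0221). HDAC7, which has established roles in endothelial cells and lymphocytes, measured 427 and 437 CPM with DMSO against 414 and 444 CPM with entinostat in BRCA1+ cells. In BRCA1-null cells it measured 415 and 397 CPM with DMSO against 393 and 376 CPM with entinostat, so that the groups overlapped in BRCA1+ cells alone. Its log2 fold change with entinostat was -0.0095 ± 0.0551 in the BRCA1+ line (95% interval -0.13 to 0.11, edgeR adjusted p = 0.939), and the BRCA1-null line gave -0.079 ± 0.0550 (-0.20 to 0.045, adjusted p = 0.400). The value in BRCA1+ cells turned to 0.038 with upper-quartile scaling.

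HDAC11, the lysine defatty-acylase, measured 7.38 and 6.60 CPM in BRCA1+ control and 8.39 and 9.51 CPM in BRCA1+ entinostat cells, without overlap. In BRCA1-null cells the control libraries (8.68 and 8.54 CPM) lay between the entinostat libraries (10.4 and 8.02 CPM). Its log2 fold changes of 0.37 ± 0.152 (edgeR adjusted p = 0.143) and 0.10 ± 0.141 (adjusted p = 0.691) were not called, and the second turned to -0.10 without BRCA1-null entinostat replicate 1. HDAC9 measured 18.1 and 17.7 CPM in BRCA1+ control against 16.2 and 14.4 CPM in BRCA1+ entinostat cells, with a log2 fold change of -0.24 ± 0.149 (edgeR adjusted p = 0.342). In BRCA1-null cells its control libraries (58.2 and 44.8 CPM) enclosed its entinostat libraries (52.3 and 45.3 CPM), and the change of -0.073 ± 0.122 (adjusted p = 0.751) turned positive without BRCA1-null control replicate 1 (0.099) or BRCA1-null entinostat replicate 2 (0.025).

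**Figure D3:**
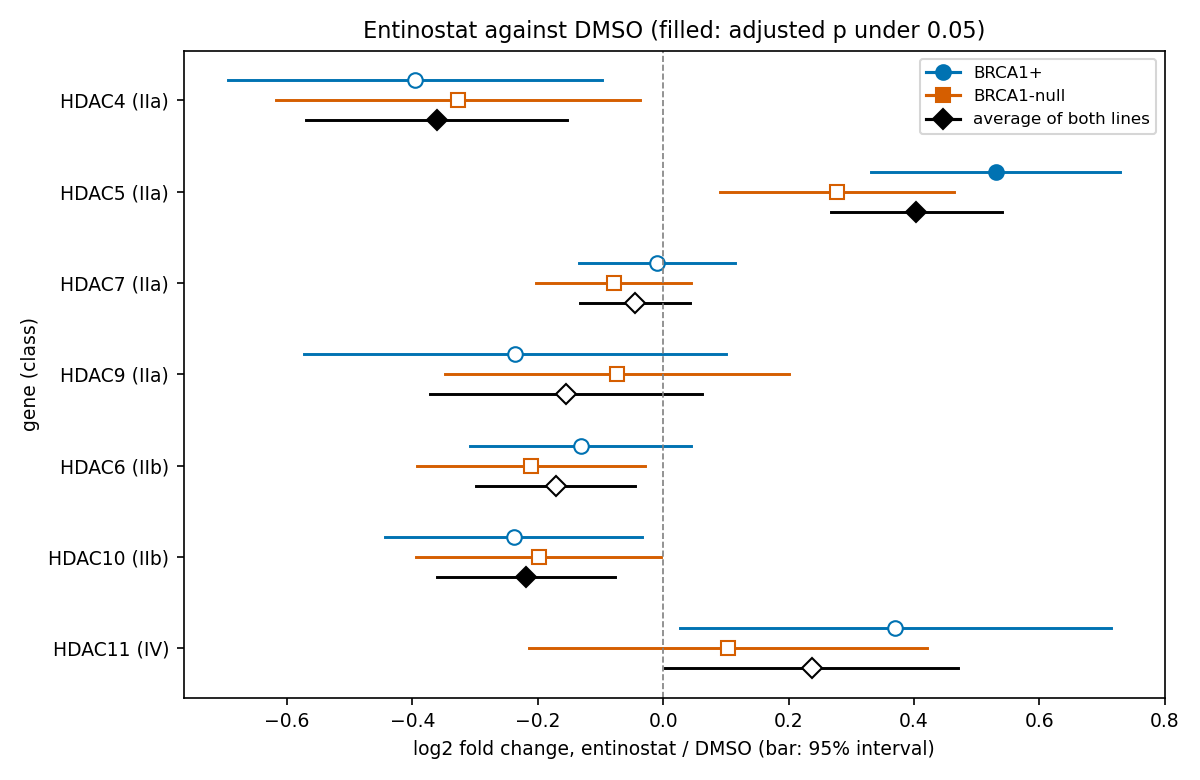
Log2 fold change of entinostat against DMSO for the 7 genes, with 95% intervals, in BRCA1+ cells (circles), BRCA1-null cells (squares) and as the average of both lines (diamonds); filled symbols have an edgeR adjusted p under 0.05. HDAC5 is filled in BRCA1+ cells and in the average, and HDAC4 and HDAC10 are filled in the average alone.

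Groups of 2 libraries that do not overlap are common in these data. Entinostat and control libraries did not overlap for 6 of the 7 genes in BRCA1+ cells, where this held for 57.0% of all tested genes, and for 5 of 7 in BRCA1-null cells (54.7% of all). The median log2 fold change of the 7 genes was -0.13 in BRCA1+ and -0.079 in BRCA1-null cells, against 0.00041 and 0.019 over all tested genes. The interaction, which tests whether the entinostat response differs between the lines, was called for 0 of the 7 genes (0% of all tested genes). With edgeR 0 of the 7 and 827 of all genes had an unadjusted p under 0.05 for it, and the DESeq2 Wald test called 0 of the 7 and 11 of all genes. Among class I genes, HDAC1 rose by 0.29 ± 0.0393 over both lines (edgeR adjusted p = 0.00113), as did HDAC8 (0.32 ± 0.0851, adjusted p = 0.0242) and HDAC3 (0.17 ± 0.0416, adjusted p = 0.0171), while HDAC2 was at 0.017 ± 0.0405 (adjusted p = 0.801). The calls of HDAC3 and HDAC8 were both lost without BRCA1+ control replicate 1, BRCA1-null control replicate 1 or BRCA1+ entinostat replicate 2, and singly without replicate 2 of BRCA1-null control (HDAC3) or BRCA1-null entinostat (HDAC8), with adjusted p up to 0.0798 and 0.113.

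The second comparison asked how the genes differed between BRCA1-null and BRCA1+ cells. In DMSO 3 of the 7 were called, HDAC9 and HDAC5 higher and HDAC6 lower in BRCA1-null cells, where the background was 42.2% (21.1% higher, 21.0% lower). In entinostat 4 of 7 were called, the same 3 in the same directions and HDAC7 lower, where the background was 39.4% (20.5% higher, 18.9% lower). Libraries of the lines did not overlap for 6 of the 7 genes in DMSO (70.9% of all) and for 5 of 7 in entinostat (69.5% of all).

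HDAC9, a class IIa repressor studied in muscle and immune cells, differed most. Its 4 BRCA1+ libraries lay at 14.4 to 18.1 CPM and its 4 BRCA1-null libraries at 44.8 to 58.2 CPM, a gap wider than the range within either line. It was 2.87-fold higher in BRCA1-null cells in DMSO (95% interval 2.33 to 3.53, log2 fold change 1.52 ± 0.133, edgeR adjusted p = 3.23e-05) and 3.21-fold higher in entinostat (2.59 to 3.99, 1.68 ± 0.138, adjusted p = 2.48e-05). Both calls held in all 14 alternative fits. Relative to HDAC5 per kilobase, HDAC9 stood at 0.486 and 0.531 in the BRCA1+ control libraries and at 1.14 and 0.897 in the BRCA1-null control libraries.

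The genes around HDAC9 were also higher in BRCA1-null cells. On hg19 HDAC9 occupies 18126572 to 19036992 of chromosome 7 on the plus strand, and its 25 nearest tested genes on each side, within 6655527 to 23349828, had a median log2 fold change of 0.58 in DMSO. Of these 50 neighbours, 32 were called higher and 1 lower (background 21.1% and 21.0%), and 8 had a larger log2 fold change than HDAC9. In entinostat the median was 0.46, and 4 neighbours exceeded HDAC9. The part of this region in the HDAC9 value was not tested.

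HDAC5 was 1.43-fold higher in BRCA1-null cells in DMSO (1.25 to 1.64, log2 fold change 0.52 ± 0.0865, edgeR adjusted p = 0.00132). This comparison and the entinostat response in BRCA1+ cells share the BRCA1+ control libraries, the lowest 2 of the 8 for this gene. In entinostat the difference was 1.2-fold (1.05 to 1.37, 0.27 ± 0.0843, edgeR adjusted p = 0.0323). The call in DMSO held in all 14 alternative fits. That in entinostat was lost in the DESeq2 Wald test (adjusted p = 0.0570) and, with edgeR, without BRCA1+ entinostat replicate 1 (0.0517), BRCA1+ entinostat replicate 2 (0.233), BRCA1-null control replicate 1 (0.0506) or BRCA1-null entinostat replicate 1 (0.170). HDAC5 lies at 42154121 to 42201014 of chromosome 17 (hg19, minus strand). Its 50 neighbours, a stretch that takes in BRCA1, had a median log2 fold change of 0.057 in DMSO. Of these, 9 were called higher and 10 lower (background 21.1% and 21.0%), and 13 lay above HDAC5.

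HDAC6 was lower in BRCA1-null cells, by 0.42 on the log2 scale in DMSO (SE 0.0778, edgeR adjusted p = 0.00246), a 1.34-fold difference, and by 0.50 in entinostat (SE 0.0811, edgeR adjusted p = 0.00119), a 1.41-fold difference. All 4 BRCA1-null libraries (18.7 to 22.2 CPM) lay below all 4 BRCA1+ libraries (25.7 to 29.8 CPM). Both calls held in all 14 alternative fits. On hg19 HDAC6 lies at 48660487 to 48683380 of the X chromosome (plus strand). The median of its 50 neighbours was -0.12 in DMSO, with 3 called higher and 13 lower (background 21.1% and 21.0%) and 44 above HDAC6. The part of this region in the HDAC6 value was not tested.

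HDAC7 was 1.12-fold lower in BRCA1-null cells in entinostat (log2 fold change -0.16 ± 0.0551, edgeR adjusted p = 0.0469), and in DMSO the difference was -0.089 ± 0.0550 (adjusted p = 0.226). The call was lost in 9 of 14 alternative fits, namely upper-quartile scaling (adjusted p = 0.0531), the DESeq2 Wald test (0.0515), the fit on only the groups compared (0.0670), and omission of BRCA1+ control replicate 1 (0.0526) or 2 (0.0606), BRCA1+ entinostat replicate 2 (0.266), BRCA1-null control replicate 2 (0.0587), or BRCA1-null entinostat replicate 1 (0.0648) or 2 (0.203). HDAC7 lies at 48176507 to 48213763 of chromosome 12 (hg19, minus strand) and overlaps SLC48A1, a heme transporter gene on the other strand, by 30 bases. SLC48A1 was -1.46 ± 0.121 in the same comparison (edgeR adjusted p = 2.60e-05), strand was not stated for the counting, and its part in the HDAC7 value was not tested.

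HDAC4, HDAC10 and HDAC11 were not called between the lines in either treatment. In DMSO the log2 fold changes were -0.12 ± 0.124 for HDAC4 (edgeR adjusted p = 0.465), 0.11 ± 0.0865 for HDAC10 (0.330) and 0.30 ± 0.148 for HDAC11 (0.130). In entinostat they were -0.053 ± 0.138 (adjusted p = 0.798), 0.15 ± 0.0909 (0.221) and 0.036 ± 0.145 (0.869). HDAC4 turned to 0.027 in DMSO without BRCA1-null control replicate 1 and to 0.034 in entinostat without BRCA1+ entinostat replicate 2, and HDAC11 in entinostat turned to -0.053 and -0.17 without replicate 1 of BRCA1+ entinostat and of BRCA1-null entinostat. On hg19, HDAC4 lies at 239969864 to 240322643 of chromosome 2 (minus strand), HDAC10 at 50683613 to 50689834 of chromosome 22 (minus) and HDAC11 at 13521715 to 13547924 of chromosome 3 (plus). Among the 50 neighbours of HDAC11 in DMSO, 24 were called higher and 9 lower in the BRCA1-null line (background 21.1% and 21.0%, median 0.41).

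**Figure D4:**
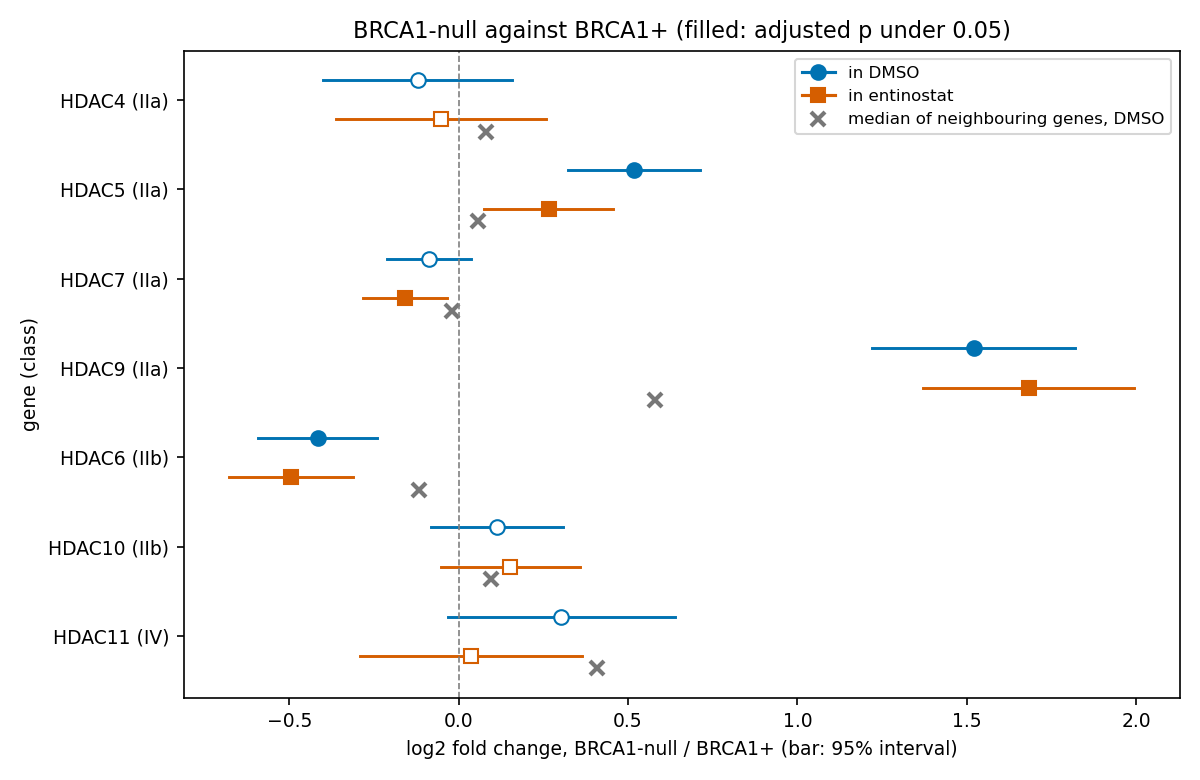
Log2 fold change of BRCA1-null against BRCA1+ cells for the 7 genes, with 95% intervals, in DMSO (circles) and in entinostat (squares); filled symbols have an edgeR adjusted p under 0.05, and crosses mark the median of the neighbouring genes in DMSO (50 per gene, 47 for HDAC10). HDAC9 stands at 1.52 and 1.68 with its neighbours at 0.58, and HDAC6 lies below 0 in both treatments.

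The shared values with class I can be set beside these. In DMSO the BRCA1-null minus BRCA1+ log2 fold changes of HDAC1, HDAC2 and HDAC3 were -0.51 ± 0.0557, -0.36 ± 0.0573 and -0.69 ± 0.0589 (edgeR adjusted p = 0.000118, 0.00100 and 2.92e-05), the same direction as HDAC6 and opposite to HDAC9 and HDAC5.

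Genes of the pathways around the class II enzymes were taken from lists and tested in the same fit. Their counts of called genes stand beside the background over all tested genes, which was 26.1% with entinostat over both lines (15.2% higher, 10.9% lower) and 42.2% between the lines in DMSO (21.1% higher, 21.0% lower). Of 18 class IIa partners (MEF2 factors and corepressors), entinostat raised 2 and lowered 2 over both lines (background 26.1%), with a median log2 fold change of 0.053 against 0.0038 over all genes. These 4 calls became 7 without BRCA1-null control replicate 1 or BRCA1-null entinostat replicate 2. MEF2C, a MEF2 factor, rose over both lines by 0.86 ± 0.199 (edgeR adjusted p = 0.0130). It measured 0.959 ± 0.154 CPM with DMSO and 2.35 ± 0.335 with entinostat in the BRCA1+ line, and in the BRCA1-null line 3.26 ± 0.636 and 4.40 ± 1.08 CPM, where the libraries overlapped and the change was not called (0.46 ± 0.214, edgeR adjusted p = 0.206). The call of MEF2C was lost without BRCA1+ entinostat replicate 1 (adjusted p = 0.0516). TBL1XR1, a subunit of the corepressor complex that holds HDAC3, rose by 0.32 ± 0.0718 (edgeR adjusted p = 0.0116), and the corepressor CTBP1 fell by 0.32 (SE 0.0404, adjusted p = 0.000793).

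Between the lines in DMSO, 4 of the 18 partners were higher and 5 lower in BRCA1-null cells, 9 in all (background 42.2%) and 5 without BRCA1-null control replicate 2. RUNX3, a RUNX factor that class IIa HDACs bind, measured 50.7 ± 5.40 CPM in BRCA1+ control and 1.10 ± 0.407 CPM in BRCA1-null control cells (log2 fold change -5.56 ± 0.187, edgeR adjusted p = 2.18e-07). MEF2C (1.74 ± 0.299, adjusted p = 0.00154) and RUNX1 (1.05 ± 0.217, adjusted p = 0.00425) were, like HDAC9, higher in BRCA1-null cells (edgeR).

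Of the kinases and 14-3-3 proteins that export class IIa HDACs from the nucleus, 23 of 25 were tested, and entinostat raised 5 and lowered 0 over both lines (background 15.2% higher and 10.9% lower, median -0.021). The count was 2 without either BRCA1+ control library or either BRCA1+ entinostat library, and 3 without BRCA1-null control replicate 1 or 2 or BRCA1-null entinostat replicate 1. CAMK1, a calcium/calmodulin-dependent kinase, rose from 4.29 ± 0.616 to 6.90 ± 0.0842 CPM in the BRCA1+ line and from 3.70 ± 0.0456 to 6.09 ± 0.976 CPM in the BRCA1-null line (0.70 ± 0.115, edgeR adjusted p = 0.00273). CAMK2B rose by 0.58 ± 0.113 (edgeR adjusted p = 0.00618). In DMSO 4 of the 23 were higher and 5 lower in BRCA1-null cells (background 42.2%, and 5 in all without BRCA1-null control replicate 2), with CAMK2B (1.29 ± 0.165) and the salt-inducible kinase gene SIK1 (1.25 ± 0.118) higher and CAMK4 (-0.73 ± 0.119) lower (edgeR adjusted p = 0.000285, 4.78e-05 and 0.00114).

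Of 15 genes known to depend on MEF2, 13 were tested, and entinostat raised 4 and lowered 0 over both lines (background 15.2% higher and 10.9% lower, median 0.27 against 0.0038 over all genes). PPARGC1A, a coactivator of mitochondrial genes, rose from 0.384 ± 0.0120 to 1.33 ± 0.0988 CPM in the BRCA1+ line and from 0.314 ± 0.209 to 1.90 ± 0.658 CPM in the BRCA1-null line (2.24 ± 0.312, edgeR adjusted p = 0.00125). NR4A1, an immediate early nuclear receptor gene, rose by 1.08 ± 0.227 (edgeR adjusted p = 0.00867). The other 2, SLC2A4 (0.92 ± 0.287, adjusted p = 0.0427) and JUN (0.27 ± 0.0835, adjusted p = 0.0437, edgeR), lost the call in 7 and 6 of 13 alternative fits, with adjusted p up to 0.178 and 0.151, and the count of 4 became 2 without BRCA1-null control replicate 1, BRCA1-null entinostat replicate 1 or BRCA1+ control replicate 2. Between the lines in DMSO (background 42.2%) 2 of the 13 were higher (KLF4 0.93 ± 0.0913, CPT1B 0.74 ± 0.145) and 2 lower (EGR1 -2.25 ± 0.364, BDNF -1.45 ± 0.128) in BRCA1-null cells, with edgeR adjusted p = 6.19e-05, 0.00306, 0.00112 and 3.40e-05.

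Around HDAC6, 19 of 20 genes for substrates, partners and opposing enzymes were tested, and over both lines entinostat raised 3 and lowered 7 (median -0.10), 10 in all (background 26.1%) and 6 without BRCA1+ control replicate 1. The alpha-tubulin gene TUBA1A rose from 12.5 ± 1.98 to 33.7 ± 4.27 CPM in the BRCA1+ line and from 16.4 ± 3.20 to 32.3 ± 1.5 CPM in the BRCA1-null line (1.2 ± 0.107, edgeR adjusted p = 0.000150). The more abundant alpha-tubulin gene TUBA1C fell from 448 ± 7.24 to 377 ± 0.237 CPM in the BRCA1+ line (edgeR adjusted p = 0.00894). In the BRCA1-null line TUBA1C fell from 439 ± 8.83 to 386 ± 3.66 CPM (edgeR adjusted p = 0.0357). These 2 calls of TUBA1C were lost in 3 and 7 of 14 alternative fits. VCP, the segregase that works with HDAC6 on ubiquitinated proteins, fell by 0.26 (SE 0.0358, edgeR adjusted p = 0.00127), and SQSTM1, an autophagy receptor, fell by 0.26 (SE 0.0574, adjusted p = 0.0101). In DMSO 3 of the 19 were higher and 8 lower in BRCA1-null cells, 11 in all (background 42.2%), and fewer when any library was omitted. The largest called change was that of TPPP, which was higher, by 0.83 ± 0.296 (edgeR adjusted p = 0.0485). This call was lost in 11 of 14 alternative fits. VCP (-0.65 ± 0.0507), PLAA (-0.62 ± 0.0860) and the peroxiredoxin gene PRDX1 (-0.60 ± 0.0456) were lower, as was HDAC6 (edgeR adjusted p = 1.85e-05, 0.000433 and 1.56e-05). The part of chromosome position in the values of these genes was not tested.

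Around HDAC10, all 15 genes of polyamine metabolism were tested, and over both lines entinostat raised 3 and lowered 3 (background 26.1%, median 0.087). SAT1, which acetylates spermidine and spermine, rose over both lines by 0.85 ± 0.137 (edgeR adjusted p = 0.00248). It measured 11.6 ± 1.80 CPM with DMSO and 23.7 ± 2.65 with entinostat in the BRCA1+ line, and 11.7 ± 2.57 and 18.4 ± 4.07 CPM in the BRCA1-null line, where the change alone was not called (adjusted p = 0.0575). SRM, spermidine synthase, fell from 137 ± 5.69 to 89.6 ± 0.256 CPM in the BRCA1+ line and from 143 ± 5.45 to 113 ± 1.96 CPM in the BRCA1-null line (-0.48 ± 0.0411, edgeR adjusted p = 0.000134). ODC1, ornithine decarboxylase, fell by 0.50 in BRCA1+ cells (SE 0.0678, edgeR adjusted p = 0.00261), from 364 ± 24.8 to 257 ± 13.4 CPM. In BRCA1-null cells ODC1 measured 324 ± 1.76 CPM with DMSO and 293 ± 17.8 with entinostat, and the change was not called. SAT2 (0.49 ± 0.0764) and the antizyme gene OAZ2 (0.37 ± 0.0457) rose over both lines (edgeR adjusted p = 0.00215 and 0.000706). In DMSO 2 of the 15 were higher and 3 lower in BRCA1-null cells (background 42.2%).

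Around HDAC11, 8 genes of lysine fatty acylation and HDAC11 partners were tested. With entinostat over both lines 0 of them were called in edgeR (background 26.1%, median -0.083). Of the 8, 0 had an unadjusted p under 0.05 in edgeR, against 6738 of all 17714 genes. The DESeq2 Wald test called 0 of the 8, against 4231 of all. In DMSO 3 were higher and 4 lower in BRCA1-null cells, 7 in all (background 42.2%), which became 3 without BRCA1+ control replicate 1, 4 without BRCA1-null control replicate 1 or BRCA1+ control replicate 2 and 1 without BRCA1-null control replicate 2. Among them was NMT2, an N-myristoyltransferase, higher by 0.54 ± 0.120 (edgeR adjusted p = 0.00589). Of the 7 sirtuins, the NAD-dependent class III deacetylases, entinostat raised 1 and lowered 2 over both lines, with SIRT1 at -0.39 ± 0.0568 (edgeR adjusted p = 0.00153), 3 in all (background 26.1%) and 1 without BRCA1+ entinostat replicate 2. In DMSO 1 sirtuin was lower in BRCA1-null cells, and 0 without BRCA1-null control replicate 2 (edgeR).

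**Figure D5:**
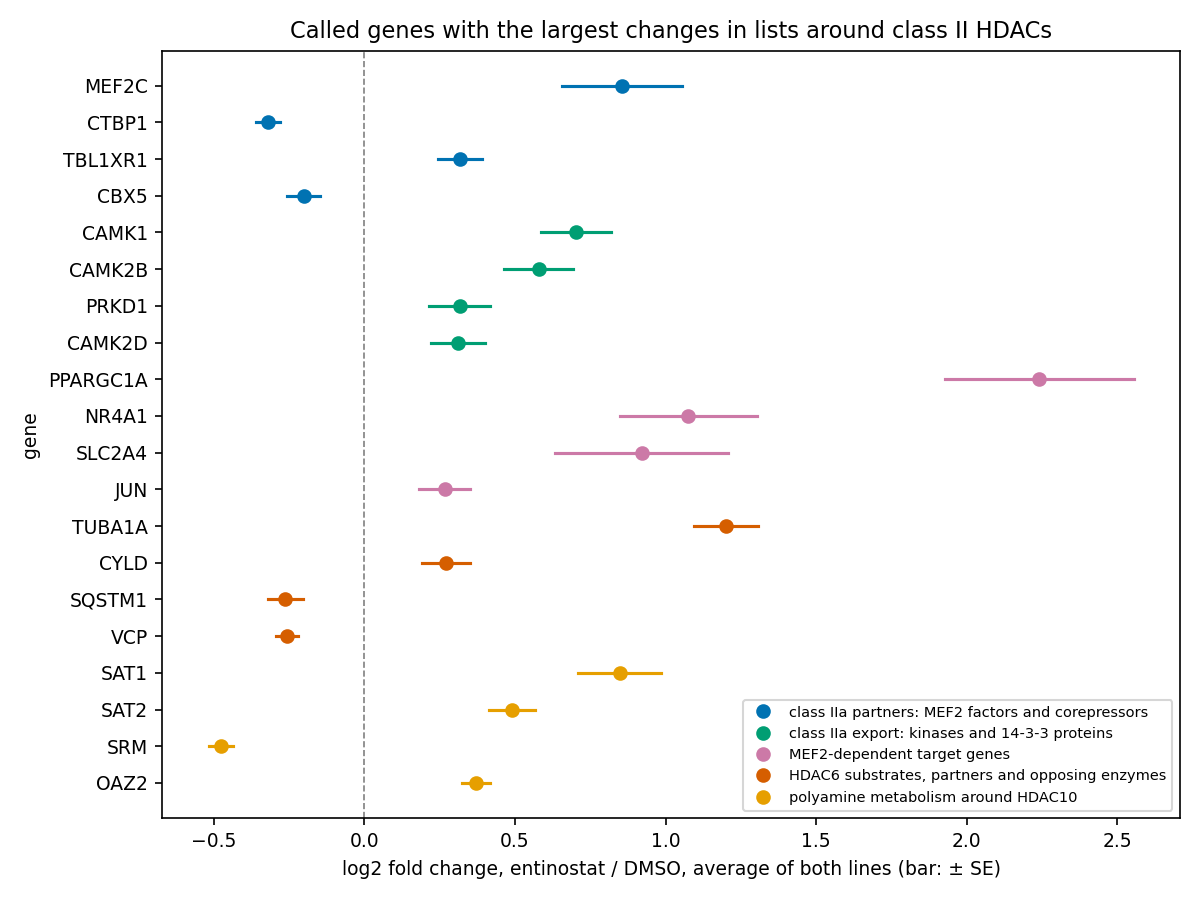
Log2 fold change of entinostat against DMSO as the average of both lines (bars show ± SE) for the called genes with the largest changes, at most 4 per list, in 5 lists around the class II enzymes. PPARGC1A (2.24), TUBA1A (1.2) and NR4A1 (1.08) rise most, and SRM (-0.48) falls most.

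Finally, the genes whose log2 CPM over the 8 libraries was most like that of each HDAC were identified among 10405 genes of sufficient level by Pearson's r, as a description over libraries that share line and treatment. HDAC9 was closest to PARPBP (0.998) and RMI1 (0.996), HDAC5 to TCIRG1 (0.994) and PGF (0.992), and HDAC6 to NADSYN1 (0.995) and UHRF1BP1 (0.994). HDAC10 was closest to BCS1L (0.987) and WDR90 (0.979), HDAC4 to RNASEH2C (0.985) and DCUN1D2 (0.979), HDAC7 to P4HB (0.966) and MTO1 (0.965), and HDAC11 to PDK2 (0.929) and SLC3A1 (0.920). Among the 7 genes themselves, HDAC6 and HDAC9 ran in opposite directions (r = -0.889 over 8 libraries), as did HDAC5 and HDAC6 (-0.857), while HDAC6 and HDAC7 ran together (0.887).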

How the data were processed

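Poly(A) RNA libraries were prepared with a NEBNext kit and sequenced on a HiSeq instrument. The authors aligned reads to hg19 with TopHat, quantified genes with NGSUtils and deposited raw read counts per gene symbol in 1 table, with gene positions and lengths. The setting for strand was not given in the sources used here. Groups and replicate numbers came from the titles of the samples.

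Counts were tested with edgeR 4.0.16 in R 4.3.3, with TMM scaling, filterByExpr by group (17714 genes) and 1 quasi-likelihood fit of 8 libraries with a mean per group. Tests were two-sided, and a gene was called at a Benjamini-Hochberg adjusted p under 0.05. Intervals are at 95%. CPM per kb divides CPM by the tabulated length. Total counts, 31900158 to 53549893 per library, set the counting precision. The script was tested on simulated data.

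The members and lists were chosen with earlier results of these data known, and the lists were compiled from general knowledge. Named genes were the 7 HDACs, BRCA1, class I HDACs, genes overlapping or within 1000 bases of an HDAC, at most 4 called genes per list and comparison with the largest log2 fold change, and the 2 most similar genes (mean log2 CPM of at least 3, prior count 2). Symbols were matched to RefSeq synonyms. Start windows came from RefSeq (GRCh38.p14). Alternatives were DESeq2 1.42.0 size factors and Wald test, upper-quartile scaling, no filter, a replicate block, fits on the groups compared, and omission of each library. Each library was omitted in turn for every comparison, also where it lay outside the groups compared.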

Additional observations from a re-analysis of the deposited data

How the results depend on the processing

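Over all alternatives, the members' log2 fold changes kept direction and side of the threshold in 528 of 574 comparisons with the reported value, and 26 calls were lost, 5 gained and 15 directions turned, all of the latter in changes that were not called. The 574 include values that were never called and fits that omitted a library outside the groups compared. Their share kept therefore does not measure how stable the calls were. Members called with entinostat numbered 1 in BRCA1+ cells, 0 in BRCA1-null cells and 3 over both lines, and 1, 0 and 1 to 3 when a library was omitted. Between the lines 3 were called in DMSO under every alternative, and 4 in entinostat, which became 2 with the DESeq2 Wald test and 2 to 3 when a library was omitted.

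The replicate numbers in the titles were tried as a block. Deviations of same-numbered libraries from their group means correlated at 0.0523 to 0.287 over all tested genes and at 0.234 to 0.718 over the 10405 more highly expressed genes (mean log2 CPM 3 or above), highest within each line (0.718 in BRCA1+, 0.638 in BRCA1-null). The labels name no shared culture or batch and each comparison of 2 groups has only 2 pairs, so the numbers were not taken as pairs. Same-numbered libraries nevertheless deviated together among the expressed genes. With the block 3 members were called with entinostat in BRCA1+ cells (HDAC4 and HDAC10 added) and 1 in BRCA1-null cells (HDAC5, edgeR adjusted p = 0.0126), and HDAC6 was added over both lines (adjusted p = 0.0221). Genes called of all tested rose with it from 2503 to 4314, from 1906 to 3640 and from 4622 to 6351, and from 0 to 1 for the interaction.

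Upper-quartile scaling turned HDAC7 with entinostat in BRCA1+ cells to 0.038 and the interaction of HDAC10 to -0.0022. With a library omitted, log2 fold changes with entinostat ranged from -0.066 to 0.045 for HDAC7 in BRCA1+ cells, and from -0.25 to 0.099 for HDAC9 and -0.10 to 0.27 for HDAC11 in BRCA1-null cells. Between the lines they ranged from -0.28 to 0.027 for HDAC4 in DMSO, and from -0.13 to 0.034 for HDAC4 and -0.17 to 0.20 for HDAC11 in entinostat. The interaction ranged from -0.090 to 0.22 for HDAC4, -0.066 to 0.13 for HDAC10 and -0.016 to 0.33 for HDAC9. Over all genes, omission of a library gave 676 to 2413 calls with entinostat in BRCA1+ cells, 512 to 1597 in BRCA1-null cells, 3057 to 4007 over both lines and 4527 to 6918 between the lines in entinostat. The fit on only the groups compared gave 712 in BRCA1-null cells, where fewer libraries estimate the spread, and the DESeq2 Wald test called 11 genes for the interaction, against 0. List counts over both lines ranged, with a library omitted, from 3 to 7 for class IIa partners, 2 to 4 for export, 2 to 4 for MEF2 targets, 6 to 9 around HDAC6 and 5 to 6 around HDAC10. Apart from the values given, the cause of these differences was not tested. The smallest count of a member was 227, for HDAC4, and the share of counting error in the intervals was not tested.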
